A study of Mus musculus with 24 samples.

Results

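The DNA replication genes described here were 45 genes out of the 45706 Ensembl gene identifiers in each of the count tables. They were chosen as a list of origin licensing, polymerase, nucleotide supply and S-phase genes, by function and not by a cut on measured values, though with earlier results of these data known, and all 45 symbols were found in both tables. All 45 also had enough reads to be tested in every comparison below. The RNA libraries numbered 24 and came from mouse organoids, epithelial cultures grown in gel from intestinal crypts, with 12 of small intestinal (SI) and 12 of colonic (COL) origin. Each tissue gave 3 genotypes (BRAF, p53 and BRAFp53), each with 2 induced (on) and 2 non-induced (off) libraries.

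A chromosome can be copied once per cell cycle because licensing and firing are separated in time. In G1 phase the origin recognition complex with Cdc6 and Cdt1 loads the Mcm2-7 helicase onto DNA. At S-phase entry, cyclin E with its kinase and the E2F factors drive the cells on, Cdc45 and the GINS complex switch the helicase on, and the polymerases copy the strands with the sliding clamp Pcna. In the intestinal epithelium these genes are known as marks of the dividing crypt cells, and differentiated cells of the villus or the surface turn them off.

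All organoids came from C57BL/6N mice with the transgene Villin::CreERT2, whose Villin promoter limits recombination to intestinal epithelium, so the off organoids carried it too. BRAF organoids carried Braf floxV600E/+, which makes wild-type Braf until recombined, p53 organoids carried Trp53 LSL-R172H/+, in which a stop cassette blocks the mutant allele, and BRAFp53 organoids carried both. For induction, 4-hydroxytamoxifen was given for 24 h at 0.5 µM to SI organoids and at 3.5 µM to COL organoids, and off organoids got ethanol. RNA was taken on day 8 in SI and day 3 in COL. The growth medium held Noggin, R-Spondin1, EGF and Y27632, and for COL also Wnt3a and CHIR99021, so that tissue, dose, day and medium cannot be told apart. The methods name 3 donor mice for the 3 genotypes, so that genotype and donor culture cannot be told apart either, and the 2 libraries of a group are duplicates of 1 culture, whose spread is that of handling and not of animals.

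The deposited read counts per library summed to between 51174821 and 78175143 in COL and between 44350747 and 68214835 in SI. Trp53 rose in COL p53 by 0.94 on the log2 scale (adjusted p = 0.023, edgeR's quasi-likelihood test with Benjamini-Hochberg adjustment), in COL BRAFp53 by 0.94 (0.00062) and in SI BRAFp53 by 0.52 (0.024), and in SI p53 its log2 difference of 0.76 had an adjusted p of 0.19. In the BRAF arms Trp53 fell (−0.44 in COL, 0.033, and −0.62 in SI, 0.0035). Braf differed by 0.38 to 0.50 in the 4 arms with the BRAF allele, with adjusted p between 0.059 and 0.25 in the same test. Neither gene's counts tell mutant from wild-type transcripts. The 8 epithelial markers were detected in every library, and 11 markers of stroma, endothelium and immune cells summed to at most 4.78 CPM (counts scaled to a library total of 1e+06). The COL libraries held transcripts of Y-linked genes and the SI p53 and SI BRAFp53 libraries held Xist at 104 to 150 CPM with Ddx3y at or near 0, so that the SI and COL cultures of these genotypes differed in sex. This would not arise from 1 donor mouse per genotype, and for these genotypes sex and tissue cannot be told apart. Replicate 1 of SI BRAF on stood apart from the other SI BRAF libraries, with Xist at 15.4 CPM against 0.206 to 0.437. The numbers that fell in SI BRAF, among the 45 genes and in each of the other cell cycle lists, are given with and without it. Other counts and the values of single genes are those with all libraries unless stated, and where the Xist came from was not tested.

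Many replication genes are known targets of E2F factors, and their promoters were searched for such motifs. RefSeq windows of mouse build GRCm38.p6, from 250 bases before to 50 bases after the gene start, were matched for 37 of the 45 genes. They were searched on both strands for the letters TTTCCCGC, TTTCGCGC, TTTGCCGC and TTTGGCGC, which are E2F-type motifs. At least 1 of these stood in 14 of the 37 windows (37.8%), and in 704 of the 27025 windows of all genes (2.6%). The stretches printed here were chosen because a match lies upstream of the start and the stretch overlaps no annotated exon, and not by response. They read 5′ to 3′ on the gene's strand and have the motif letters in capitals. In Mcm5 and Mcm6, matches on the 2 strands overlap.
Cdc6, chr11:98907983-98908050, plus strand: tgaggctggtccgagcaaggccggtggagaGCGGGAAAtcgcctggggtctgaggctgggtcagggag
Mcm5, chr8:75109326-75109397, plus strand: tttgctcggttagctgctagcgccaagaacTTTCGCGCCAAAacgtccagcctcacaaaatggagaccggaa
Mcm6, chr1:128359715-128359845, minus strand: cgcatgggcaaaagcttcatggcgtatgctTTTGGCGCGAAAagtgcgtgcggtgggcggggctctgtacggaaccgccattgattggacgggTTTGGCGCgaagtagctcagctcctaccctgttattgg
Pola1, chrX:93632256-93632323, minus strand: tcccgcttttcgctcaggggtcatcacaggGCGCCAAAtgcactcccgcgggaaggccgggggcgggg
Uhrf1, chr17:56304098-56304165, plus strand: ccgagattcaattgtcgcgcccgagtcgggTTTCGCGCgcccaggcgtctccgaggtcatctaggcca
These 5 genes include the one with the lowest value in COL BRAFp53 (Pola1) and the one with the lowest value in SI BRAF (Mcm6), and their responses are given with their functions in the paragraphs on each role. A match describes the letters in the window and is no evidence of binding. The CCAAT box stood in 22 of the 37 windows (59.5%) against 41.1% of all genes, and the letters TTTGAA or TTCGAA, the cell cycle homology region (CHR) of mitotic promoters, in 6 (16.2%) against 21.7%. Among 25 genes of mitosis with a window, listed for comparison, 18 held the CHR letters (72%) and 1 an E2F-type motif (4%).

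In non-induced organoids, per kilobase of exon, Pcna stood highest in both tissues, at 70.5 CPM per kb in COL and 63.9 in SI as the mean of 3 cultures. The ribonucleotide reductase subunit Rrm2 followed at 50.7 and 51.7, and the flap nuclease gene Fen1 stood lowest at 0.568 and 0.514. Fen1 shares 1909 exonic bases with the antisense gene Gm10143, and since no source used here says whether strand entered the counting, reads of the pair cannot be told apart. The same limit holds for Chaf1a, which shares 4648 bases with Ubxn6, for Gins2 with Gse1 (2758), Rfc2 with Lat2 (952), Ccne2 with Ints8 (609) and Rfc5 with Wsb2 (499), and for shorter stretches in Orc1, Orc6, Mcm7, Cdc45, Pole, Rfc4, Lig1 and Tk1. Pole2 shares 245 bases with Gm49384 on the same strand, where a strand setting would not separate them.

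Non-induced SI and COL cultures were then compared, with 3 cultures a tissue. Of the 45 genes, 13 were lower in SI, where 17% of all 17789 genes tested were, and 2 were higher, where 12.6% of all genes were. An unadjusted p under 0.05 was reached by 17 of the 45, where 42.3% of all genes reached it. Orc1, the large subunit that recognizes origins, differed most, at −1.41 ± 0.22 (SE) on the log2 scale (adjusted p = 0.0054, edgeR), followed by Pola1 at −0.91 ± 0.18 (0.010), Rfc1 at −0.84 ± 0.14 (0.0066) and Mcm4 at −0.71 ± 0.15 (0.014). The 2 genes higher in SI were Rpa3, a subunit of the single-strand binding protein, at 0.64 ± 0.13 (0.011), and Chaf1a, of the chromatin assembly factor, at 0.76 ± 0.21 (0.035). The number depended on the SI cultures, since 6, 2 and 3 genes passed without SI BRAF, SI p53 and SI BRAFp53. Of the 15 calls, those of Orc1 and Rfc1 alone held without each culture in turn and in every other setting. The median of the 45 was −0.01, with 23 values below 0, as for 54.1% of all genes, and 22 above.

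Most replication genes fell with the induction of BRAFV600E in both tissues. In COL BRAF, 30 of the 45 genes fell and none rose, where 9.61% of all 18972 genes tested fell and 10.3% rose. In SI BRAF, 30 of the 45 fell and none rose as well, where 14.2% of all 16856 genes tested fell and 17.5% rose. DESeq2 and limma-voom also called none higher in either arm. The median log2 fold change of the 45 genes was −0.74 in both, against −0.01 and −0.06 over all genes tested, with ranges of −1.12 to 0.35 in COL and −1.28 to −0.15 in SI. Values below 0 were found for 44 genes in COL and for all 45 in SI, where 50.7% and 53.2% of all genes had one.

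**Figure D1:**
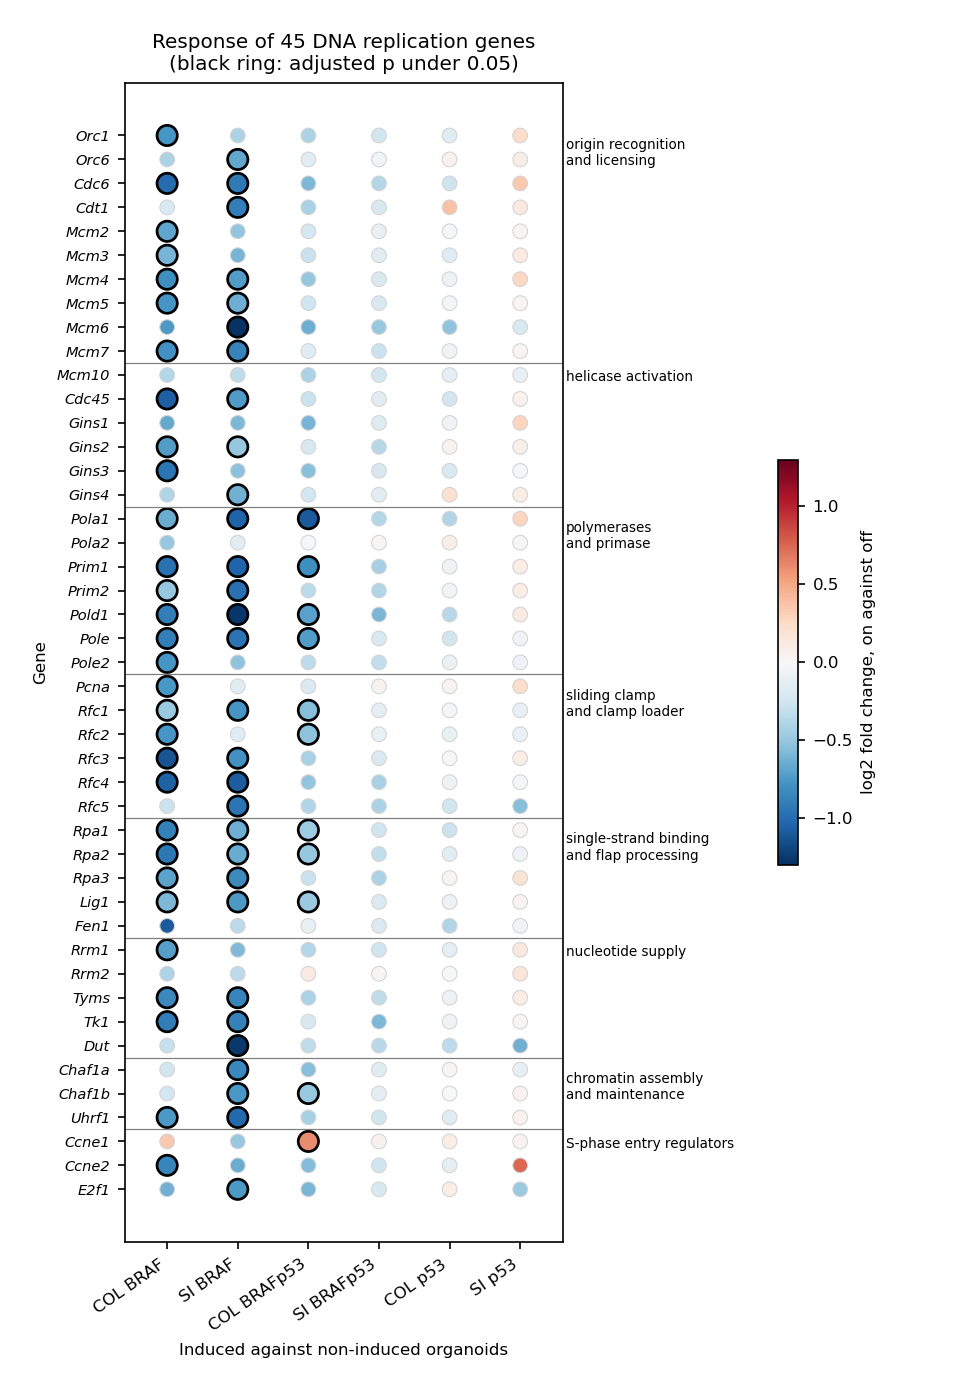
Each row is a gene and each column an arm, on against off. The colour of a point is the log2 fold change from blue (lower in on organoids) to red, and larger points with a black ring passed an adjusted p under 0.05 in edgeR's quasi-likelihood test. Ringed points fill most of the COL BRAF and SI BRAF columns (30 of 45 each), 11 points of COL BRAFp53, and none of the SI BRAFp53, COL p53 and SI p53 columns.

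The summed level of the 45 genes separated on from off libraries in both BRAF arms. It was 3186 and 2967 CPM in the COL BRAF off libraries and 1800 and 2020 CPM in the on libraries. In SI BRAF it was 2316 and 2472 CPM off, and 1834 and 1104 CPM on. The on libraries lay below the off libraries in both, and the SI on libraries lay farther apart than those of COL. Gene by gene, both on libraries lay below both off libraries for 41 genes in COL BRAF, where 30.7% of all genes did so, and for 37 in SI BRAF, where 32.9% did. None lay above in SI BRAF, where 30.3% of all genes did. In these bulk samples, fewer dividing cells and less RNA of these genes per cell cannot be told apart.

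**Figure D2:**
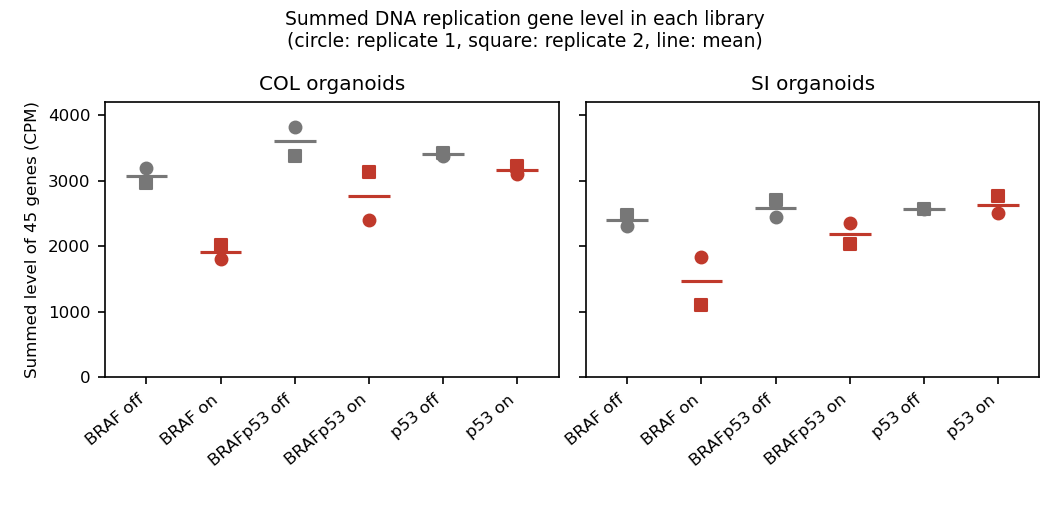
Summed level of the 45 genes in CPM (vertical axis, from 0) in every library, by group (horizontal axis), with circles for replicate 1, squares for replicate 2 and a line at the mean. The on libraries (red) lie below the off libraries (grey) in every arm but SI p53, by the most in the BRAF arms, where the SI on libraries are at 1834 and 1104 CPM.

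The depth of the fall in SI BRAF turned on which on library was used. Without replicate 1, the library with Xist, 40 of the 45 genes fell with a median of −1.12 (14.3% of all genes fell), among them all 30 that fell with both libraries. Without replicate 2, 15 fell with a median of −0.43 (7.36%), and without off replicate 2, 16 fell with a median of −0.61 (8.42%). In COL BRAF, 14 genes fell without on replicate 1, with a median of −0.68 (4.38%), and 25 without on replicate 2, with a median of −0.86 (5.48%). Olfm4, a crypt stem cell marker, also differed between the SI BRAF on libraries, at 78.6 CPM in replicate 1 and 9.08 in replicate 2, against 194 and 212 off.

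The licensing genes fell in both tissues, though not always the same ones. Of 10, 7 fell in COL BRAF (median −0.76) and 7 in SI BRAF (median −0.70). Cdc6, which loads the helicase with the origin complex, went from 43.0 and 37.9 CPM in COL BRAF off libraries to 20.7 and 19.9 CPM in on libraries, a log2 change of −0.998 ± 0.20 (adjusted p = 0.0041, edgeR). In SI BRAF its levels were 22.2 and 21.5 CPM off and 14.98 and 7.82 CPM on, a change of −0.93 ± 0.24 (0.011). On libraries lay below off libraries in both tissues, and Cdc6 is one of the genes whose promoter is printed above.

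The helicase subunits Mcm4, Mcm5 and Mcm7 fell in both tissues. Mcm5 went from 134 and 118 CPM to 75.2 and 72.5 CPM in COL BRAF (−0.77 ± 0.14, adjusted p = 0.0021 with edgeR), and from 102 and 119 CPM to 91.8 and 49.99 CPM in SI BRAF (−0.64 ± 0.22, 0.037). Mcm4 changed by −0.81 ± 0.17 in COL and −0.72 ± 0.21 in SI, and Mcm7 by −0.79 ± 0.18 and −0.86 ± 0.24. Mcm2 and Mcm3 passed in COL alone with edgeR (limma-voom called Mcm3 in SI too), at −0.68 ± 0.19 and −0.61 ± 0.13, against −0.51 ± 0.23 and −0.60 ± 0.24 in SI. Mcm2 in SI BRAF stood at 58.6 and 59.0 CPM off, and at 54.8 and 27.5 CPM on, so that replicate 2 carried the difference.

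Mcm6, the remaining helicase subunit with a printed promoter, was the gene with the lowest value of all 45 in SI BRAF, at −1.28 ± 0.18 (adjusted p = 0.00016, edgeR). Its levels there were 124 and 134 CPM off and 66.9 and 39.1 CPM on. In COL BRAF its off libraries were far apart, at 216 and 127 CPM, the on libraries at 87.5 and 117 CPM, and its value of −0.75 ± 0.33 had an adjusted p of 0.14. Cdt1, the partner of Cdc6 in loading the helicase, fell in SI BRAF from 27.6 and 29.7 CPM to 17.7 and 13.03 CPM (−0.89 ± 0.15, 0.00058), and in COL BRAF stood at 31.3 and 28.2 CPM off and 25.98 and 25.6 CPM on (−0.21 ± 0.14, 0.34). Orc1 fell in COL from 12.7 and 13.8 CPM to 7.28 and 8.38 CPM (−0.76 ± 0.23, 0.034), and in SI stood at 4.72 and 5.83 CPM off and 4.47 and 3.43 CPM on (−0.42 ± 0.25, 0.22). Orc6, the small origin complex subunit, fell in SI alone (−0.67 ± 0.17, with −0.42 ± 0.15 in COL).

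**Figure D3:**
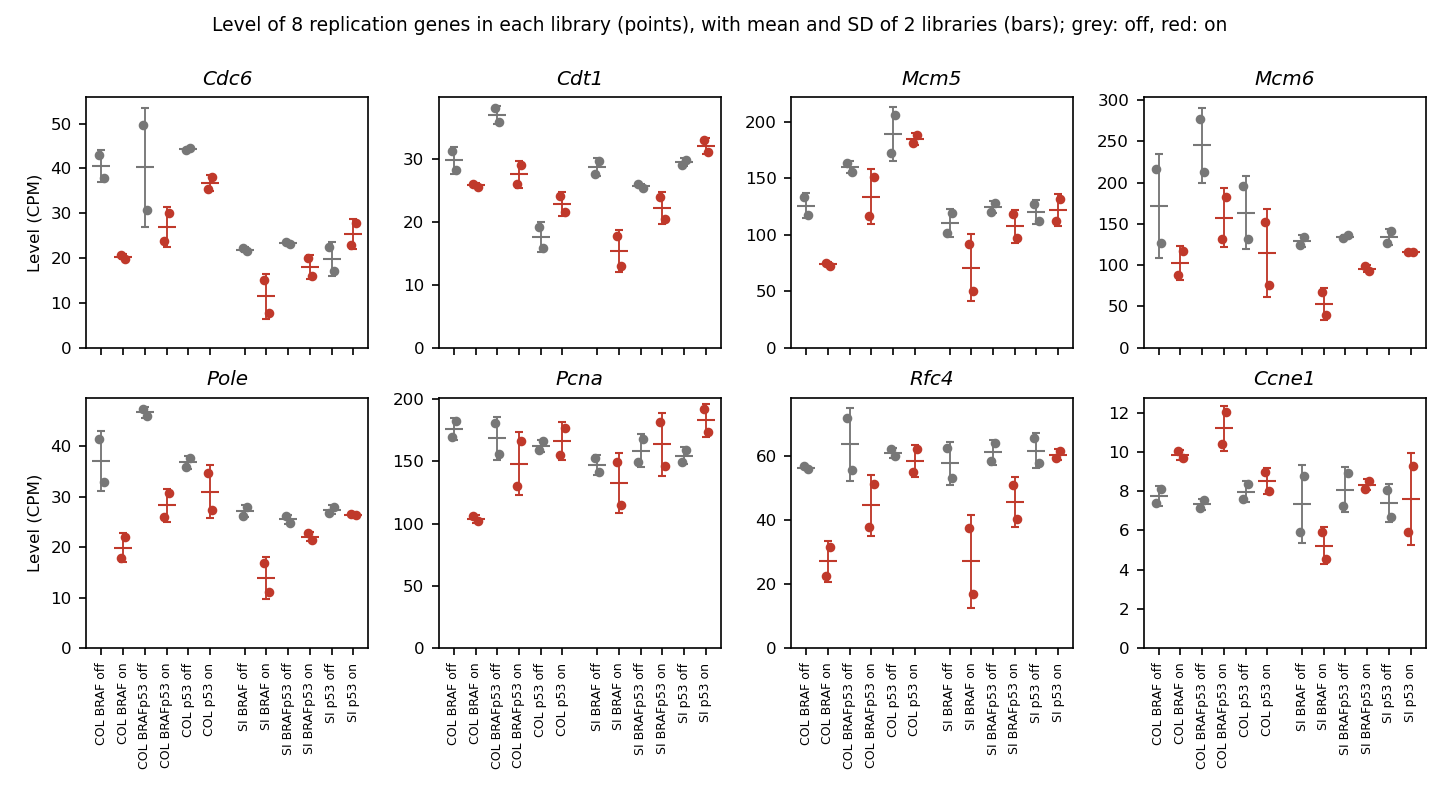
Level in CPM (vertical axes, from 0) of 8 genes in the 12 groups (horizontal axes), with a point per library and the mean and SD of 2 libraries as bars, off in grey and on in red. Cdc6, Mcm5, Pole and Rfc4 are lower in both on libraries of both BRAF arms, Pcna in COL BRAF, and Mcm6 has off libraries far apart in COL (216 and 127 CPM in COL BRAF).

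The 6 genes of helicase activation held 3 that fell in each BRAF arm. Cdc45 and Gins2, which join the helicase at the fork, fell in both tissues. Cdc45 went from 32.3 and 25.7 CPM to 12.6 and 15.1 CPM in COL BRAF (−1.07 ± 0.18, adjusted p = 0.0015 with edgeR) and from 24.5 and 29.2 CPM to 19.6 and 12.5 CPM in SI BRAF (−0.74 ± 0.18, 0.0077). Gins3 fell in COL alone at −0.95 ± 0.24, against −0.53 ± 0.43 in SI. Gins4 fell in SI alone at −0.62 ± 0.17, against −0.39 ± 0.15 in COL. Mcm10 and Gins1 passed in neither tissue with edgeR, with values of −0.38 ± 0.15 and −0.66 ± 0.25 in COL and −0.33 ± 0.21 and −0.59 ± 0.22 in SI.

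Polymerases and primase fell in most cases, 6 of 7 genes in COL BRAF and 5 of 7 in SI BRAF, with medians of −0.77 and −0.98. Pole, the catalytic subunit of the leading strand polymerase, went from 41.4 and 32.8 CPM to 17.9 and 22.0 CPM in COL BRAF (−0.90 ± 0.17, adjusted p = 0.0030 with edgeR) and from 26.3 and 28.03 CPM to 16.9 and 11.0 CPM in SI BRAF (−0.96 ± 0.17, 0.00076). Pold1, the catalytic subunit of the lagging strand polymerase, fell in both (−0.90 ± 0.20 in COL and −1.26 ± 0.20 in SI), the latter from 52.2 and 67.0 CPM to 31.5 and 18.1 CPM. Pola1 and Prim1, of the complex that starts each new strand, fell in both tissues, with −0.65 ± 0.13 and −0.97 ± 0.21 in COL and −1.05 ± 0.23 and −1.04 ± 0.28 in SI. Prim2, the other primase subunit, fell too (−0.50 ± 0.14 in COL and −0.98 ± 0.20 in SI). Pole2 fell in COL alone (−0.77 ± 0.20, against −0.52 ± 0.29 in SI), and Pola2, the regulatory subunit beside Pola1, passed in neither tissue with edgeR (−0.49 ± 0.18 and −0.15 ± 0.14).

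The sliding clamp and its loader had 5 of 6 genes that fell in COL BRAF and 4 in SI BRAF. Pcna, the clamp, went from 169.9 and 183 CPM to 106 and 102 CPM in COL BRAF (−0.76 ± 0.13, adjusted p = 0.0018 with edgeR). In SI BRAF it stood at 153 and 141 CPM off and at 149.7 and 115 CPM on, so that the groups overlapped (−0.15 ± 0.14, 0.46). Rfc2, a small loader subunit, likewise fell in COL (−0.77 ± 0.11, 0.00068) and not by the test in SI (−0.16 ± 0.14, 0.44). Rfc3 and Rfc4, the neighbouring subunits of the same loader, fell in both tissues. Rfc4 went from 56.6 and 55.9 CPM to 22.6 and 31.6 CPM in COL (−1.06 ± 0.19, 0.0023) and from 62.3 and 52.9 CPM to 37.4 and 16.9 CPM in SI (−1.08 ± 0.26, 0.0063). Rfc3 had the lowest value of all 45 genes in COL BRAF, at −1.12 ± 0.18 (0.0013), from 39.7 and 36.3 CPM to 16.1 and 18.8 CPM, and −0.78 ± 0.26 (0.034) in SI. Rfc1, the large loader subunit, fell in both (−0.48 ± 0.13 in COL and −0.77 ± 0.12 in SI), and Rfc5 fell in SI alone (−0.95 ± 0.15, against −0.28 ± 0.27 in COL, where its groups overlapped).

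The single-strand binding trimer Rpa1, Rpa2 and Rpa3 and the ligase Lig1, which seals the lagging strand, fell in both tissues. The trimer's values lay between −0.94 and −0.70 in COL BRAF and between −0.83 and −0.63 in SI BRAF. Lig1 went from 149.9 and 137 CPM to 84.9 and 107 CPM in COL (−0.59 ± 0.13, adjusted p = 0.0071 with edgeR) and from 96.3 and 119 CPM to 69.7 and 58.7 CPM in SI (−0.75 ± 0.13, 0.00074). Fen1 had only 0.452 to 1.21 CPM in the BRAF libraries of COL and passed in neither tissue (−1.09 ± 0.43 and −0.35 ± 0.43).

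Of the 5 genes of nucleotide supply, 3 fell in each BRAF arm. Thymidylate synthase Tyms and thymidine kinase Tk1, which both make thymidine nucleotides, fell in both tissues: Tk1 went from 142 and 125 CPM to 68.9 and 72.6 CPM in COL (−0.91 ± 0.13, adjusted p = 0.00067 with edgeR) and from 110.1 and 106 CPM to 78.9 and 38.7 CPM in SI (−0.87 ± 0.25, 0.016). Tyms changed by −0.84 ± 0.14 in COL and −0.86 ± 0.23 in SI. Rrm1, the large ribonucleotide reductase subunit, fell in COL (−0.72 ± 0.13), and in SI, at −0.57 ± 0.23, it passed with DESeq2 (adjusted p = 0.039) and limma-voom (0.040) and not with edgeR (0.082). Rrm2, its partner subunit, passed in neither with edgeR, at −0.40 ± 0.14 (0.059) in COL and −0.35 ± 0.23 (0.27) in SI, where replicate 1 of the on libraries at 113 CPM lay within the off libraries at 114 and 103 CPM and replicate 2 was at 57.6 CPM. Dut, which removes dUTP, fell in SI from 55.8 and 58.8 CPM to 26 and 22.1 CPM (−1.25 ± 0.18, 0.00016), and in COL its off libraries at 79.8 and 40.7 CPM spanned the on libraries at 43.7 and 54.0 CPM (−0.30 ± 0.32, 0.58).

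Uhrf1, which carries DNA methylation through replication, fell in both tissues, from 159 and 162 CPM to 87.6 and 104 CPM in COL (−0.74 ± 0.15, adjusted p = 0.0040 with edgeR) and from 91.8 and 104 CPM to 63.8 and 32.6 CPM in SI (−1.02 ± 0.22, 0.0033). The chromatin assembly factor genes Chaf1a and Chaf1b fell in SI alone (−0.84 ± 0.17 and −0.76 ± 0.21), and in COL both had values of −0.24.

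Of the 3 regulators of S-phase entry, 1 fell in each BRAF arm. Ccne1, encoding cyclin E1, was the only one of the 45 genes with a positive value in COL BRAF, with 7.40 and 8.11 CPM off and 10.04 and 9.68 CPM on (0.35 ± 0.17, adjusted p = 0.19 with edgeR). Both on libraries lay above both off libraries, as for 29.3% of all genes in that arm. Its SI value was −0.49 ± 0.26 (0.17), with on libraries at 5.89 and 4.54 CPM and off libraries at 5.92 and 8.77 CPM. Ccne2, encoding cyclin E2, fell in COL from 18.5 and 21.4 CPM to 9.35 and 12.6 CPM (−0.86 ± 0.20, 0.0087), with −0.65 ± 0.27 (0.086) in SI. E2f1, the activating E2F factor, fell in SI from 7.17 and 11.6 CPM to 6.09 and 5.06 CPM (−0.75 ± 0.24, 0.031), with −0.62 ± 0.24 (0.095) in COL.

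Put side by side, 21 genes fell in both BRAF arms, which is 70% of the list of each arm, 9 passed in COL alone, 9 in SI alone and 6 in neither (Mcm10, Gins1, Pola2, Fen1, Rrm2 and Ccne1), all with edgeR. The other tools moved single genes across these lines. In COL BRAF, DESeq2 also called Pola2 and Rrm2 and limma-voom did not call Orc1, and in SI BRAF DESeq2 also called Gins1 and Rrm1 and limma-voom Mcm3 and Rrm1. The overlap itself was smaller when either COL BRAF on library or SI BRAF on replicate 2 was left out. A gene that passed in 1 tissue alone was not thereby shown to differ between the tissues. Over the 45 genes the log2 fold changes of the 2 arms had a Spearman correlation of 0.115, which is a description across genes and not across samples. The median and the number of genes were alike. The ranking within the list was only weakly shared, and whether this was more than the error of single values was not tested. E2F-type letters stood in 8 of the 17 windows of genes that fell in both arms (47.1%), in 6 of 15 that fell in 1 arm (40%) and in none of 5 that fell in neither, with no test made.

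**Figure D4:**
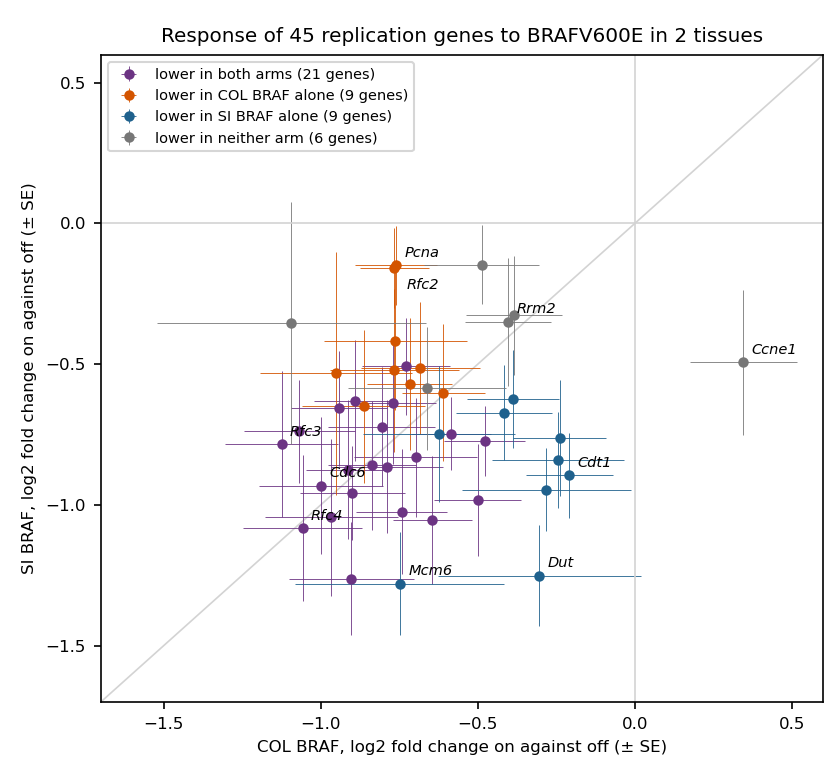
Log2 fold change on against off of each of the 45 genes in COL BRAF (horizontal axis) and SI BRAF (vertical axis), with lines of 1 SE and the diagonal of equal response. Most points lie in the lower left without following the diagonal, Cdt1, Dut and Mcm6 lie below it, Pcna and Rfc2 above it, and Ccne1 alone is to the right of 0.

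Tested directly in a joint fit of the 24 libraries, the BRAF response differed between the tissues for 3 of the 45 genes. Cdt1 was lower in SI than in COL, with a log2 difference of −0.65 ± 0.20 (adjusted p = 0.047, edgeR), where 3.31% of all 19673 genes tested were lower. Pcna and Rfc2 were higher in SI than in COL, by 0.65 ± 0.21 (0.0496) and 0.65 ± 0.18 (0.026), where 7.4% of all genes were higher. Both counts, 1 and 2 of 45, were smaller shares than among all genes, as were the 5 members at an unadjusted p under 0.05, which 23.5% of all genes reached. These calls moved with the SI BRAF on libraries. Without replicate 1, Cdt1 was at −0.87 ± 0.21 (0.013), Pcna at 0.46 ± 0.21 (0.22), Rfc2 at 0.40 ± 0.17 (0.17), and the median difference of the 45 genes was −0.43. Without replicate 2, Cdt1 was at −0.46 ± 0.20 (0.21), Pcna at 0.81 ± 0.20 (0.017), Rfc2 at 0.85 ± 0.16 (0.0034), and the median was 0.42. With all libraries the median was 0.05 and 20 differences were below 0, as for 49% of all genes, so that which tissue showed the deeper fall was set by that choice, while each of these 3 genes kept its direction.

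With p53R172H beside BRAFV600E, fewer replication genes passed the test. In COL BRAFp53, 10 of the 45 genes fell, where 7.76% of all genes did, and 1 rose, where 9.95% did, with a median of −0.41 against −0.04 over all genes and 43 values below 0, as for 52.9% of all genes. The 10 genes were Pola1, Prim1, Pold1 and Pole of the polymerases, Rfc1 and Rfc2 of the clamp loader, Rpa1, Rpa2 and Lig1, and Chaf1b. Of these, 9 had also fallen in COL BRAF (all but Chaf1b), and 8 fell in all 3 arms (all but Chaf1b and Rfc2). No licensing, helicase activation or nucleotide supply gene passed with edgeR. DESeq2 also called Cdc6, Cdt1, Mcm4, Rfc4, Rrm1, Tyms, Uhrf1 and Ccne2 lower, and limma-voom all of these but Cdc6 and Ccne2. The polymerase genes had the lowest median of all roles, at −0.70.

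Pola1, with its promoter printed above, was the gene with the lowest value in COL BRAFp53. It went from 47.7 and 47.0 CPM to 22.4 and 21.9 CPM, a change of −1.10 ± 0.13 (adjusted p = 0.00020, edgeR), and was the only one of the 11 that passed under every setting and without each library in turn. Prim1 went from 58.3 and 46.1 CPM to 24.3 and 35.3 CPM (−0.81 ± 0.21, 0.021) and Pole from 47.5 and 46.0 CPM to 25.96 and 30.6 CPM (−0.72 ± 0.17, 0.011). Ccne1 was the gene that rose, from 7.14 and 7.52 CPM to 10.4 and 12.02 CPM (0.61 ± 0.17, 0.028). Its on libraries lay above its off libraries, while for 33 of the other genes they lay below, where 29.4% of all genes did so and 27.6% lay above.

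None of the 7 licensing genes that had fallen in COL BRAF passed in COL BRAFp53 with edgeR, while DESeq2 called Cdc6 and Mcm4 and limma-voom Mcm4. Cdc6 was at −0.58 ± 0.19 (adjusted p = 0.060, edgeR), with off libraries at 49.6 and 30.8 CPM and on libraries at 23.8 and 30.02 CPM. Mcm5 was at −0.26 ± 0.13 (0.22) and Mcm2 at −0.23 ± 0.19 (0.45). Cdt1, not called in COL BRAF, was at −0.43 ± 0.14 (0.053). Of other roles, Pcna stood at 181 and 156 CPM off and 130.2 and 166 CPM on (−0.19 ± 0.13, 0.36), and Rrm2 at 149 and 140.1 CPM off and 131 and 179.5 CPM on (0.10 ± 0.14, 0.66). The on libraries of this arm differed, with a summed level of 2408 CPM in replicate 1 and 3128 in replicate 2, against 3822 and 3376 CPM off. Without replicate 1, only Pola1 fell, with a median of −0.21 (3.1% of all genes fell), without replicate 2, 17 genes fell with a median of −0.60 (4.17%), and without off replicate 1, 4 fell with a median of −0.32 (5.14%). Ccne1 did not pass when any of these 3 was left out.

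In SI BRAFp53 none of the 45 genes passed with edgeR, where 4.53% of all genes fell and 6.98% rose. At an unadjusted p under 0.05 there were 4, where 24.6% of all genes were, DESeq2 called 2 lower (Mcm6 and Pold1) and limma-voom 1 (Pold1). The median was −0.21 against −0.03 over all genes, 41 of the 45 values were below 0, as for 52.4% of all genes, and both on libraries lay below both off libraries for 27 genes, where 28.2% of all genes did. Mcm6, lowest in SI BRAF, stood at 133 and 136 CPM off and 98.96 and 92.6 CPM on (−0.49 ± 0.18, adjusted p = 0.10 with edgeR). Pold1 was at 62.0 and 60.9 CPM off and 42.5 and 39.2 CPM on (−0.59 ± 0.20, 0.073), and Tk1 at 123 and 114 CPM off and 93.7 and 64.6 CPM on (−0.59 ± 0.24, 0.15). For these 3 the groups did not overlap. Cdc6 was at −0.38 ± 0.24 (0.38) and Pcna at 0.04 ± 0.14 (0.90).

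The difference between the BRAFp53 and the BRAF response was tested within each tissue. In COL none of the 45 genes passed with edgeR, where 0.532% of all genes had a higher response in BRAFp53 and 0.374% a lower one. At an unadjusted p under 0.05 there were 10, where 19% of all genes were, DESeq2 called 3 and limma-voom none. The median difference was 0.31, with 37 values above 0 and 8 below, where 51.9% of all genes were below. Tk1 came closest, at 0.70 ± 0.19 (adjusted p = 0.084, edgeR), followed by Pcna at 0.57 ± 0.18 (0.13) and Cdc45 at 0.77 ± 0.25 (0.13).

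In SI the response to BRAFp53 was less negative than that to BRAF for all 45 genes, where 48.1% of all genes were more negative, with a median difference of 0.53. The SI BRAF and SI BRAFp53 libraries also differed in Xist, as given above, so that sex and genotype cannot be told apart here. Of the 45, 2 passed, where 1.93% of all genes had a higher and 6.28% a lower response. At an unadjusted p under 0.05 there were 13, where 22.5% of all genes were. The 2 that passed were Rfc1 at 0.64 ± 0.17 (adjusted p = 0.039, edgeR) and Dut at 0.89 ± 0.25 (0.044). The number rested on the SI BRAF on libraries. Without replicate 1, 29 passed with a median of 0.91 (5.19% of all genes), and without replicate 2 none did, with a median of 0.16 (1.17%). Between tissues, the difference in BRAFp53 response had 7 values below 0, where 45.8% of all genes were below, and passed for none of the 45 genes with edgeR, DESeq2 or limma-voom (4 at an unadjusted p under 0.05, as 17.8% of all genes), where 2.13% of all genes were higher in SI and 1.39% lower.

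With p53R172H alone, none of the 45 genes passed in either tissue with edgeR, DESeq2 or limma-voom, where 0.111% of all genes fell and 0.0316% rose in COL, and 0% in SI. An unadjusted p under 0.05 was reached by 2 genes in COL, where 8.34% of all genes reached it, and by 3 in SI, where 5.18% did, so that the members named next are a description and no result about the 45. The medians were −0.06 and 0.04, with 34 values below 0 in COL and 14 in SI, where 49.4% and 48.9% of all genes were below 0. In SI the 3 were Dut, Rfc5 and Ccne2. Dut stood at 67.2 and 63.0 CPM off and at 38.2 and 46.1 CPM on (−0.63 ± 0.17, adjusted p = 0.54 with edgeR), and Rfc5 at 48.0 and 52.9 CPM off and at 33.1 and 35.7 CPM on (−0.55 ± 0.14, 0.47). Ccne2 had 8.26 and 10.4 CPM off and 15.9 and 15.4 CPM on (0.75 ± 0.27, 0.74), the largest positive value of any of the 45 genes in any arm. Both on libraries lay above both off libraries for 12 genes and below for 6, where 18.1% and 17.4% of all genes did. In COL they lay above for 2, among them Cdt1 with 19.2 and 15.8 CPM off and 24.2 and 21.5 CPM on, and below for 14, where 19.4% and 19.6% of all genes did. The difference between tissues in p53 response passed for none of the 45 genes with edgeR, DESeq2 or limma-voom (2 at an unadjusted p under 0.05, as 7.79% of all genes), where 0.107% of all genes were higher in SI and 0.0102% lower.

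Other genes of the cell cycle were read beside the 45. Of 30 mitosis genes, 23 fell in COL BRAF (median −0.71) and 25 in SI BRAF (median −0.77), 8 fell and 1 rose in COL BRAFp53 (median −0.29), and none passed in SI BRAFp53 (median −0.23). The shares that fell were 76.7%, 83.3% and 26.7% in the first 3 arms, against 9.61%, 14.2% and 7.76% of all genes, and 3.33% rose in COL BRAFp53, against 9.95%. Nusap1, a spindle protein, fell in COL BRAF (−1.34 ± 0.16, adjusted p = 0.00021 with edgeR), SI BRAF (−1.24 ± 0.22, 0.00094) and COL BRAFp53 (−1.01 ± 0.16, 0.0014). Mki67, the proliferation marker Ki-67, changed by −0.42 ± 0.10 (0.011), −0.64 ± 0.12 (0.00091) and −0.55 ± 0.10 (0.0034) in the same arms. The mitosis count in SI BRAF was 29 without on replicate 1 and 14 without on replicate 2 (14.3% and 7.36% of all genes fell), and in COL BRAF 14 and 16 (4.38% and 5.48%).

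Of 43 other replication genes, 19 fell and 1 rose in COL BRAF, 25 fell and 2 rose in SI BRAF, 10 fell and 2 rose in COL BRAFp53, and 1 rose in SI BRAFp53. The shares that fell were 44.2%, 58.1% and 23.3% in the first 3 arms, against 9.61%, 14.2% and 7.76% of all genes, and the shares that rose, 2.33%, 4.65%, 4.65% and 2.33%, lay below those of all genes (10.3%, 17.5%, 9.95% and 6.98%). In SI BRAF 29 fell without on replicate 1 and 10 without on replicate 2. The gene that rose in all 4 was Pold4, the small accessory subunit of the polymerase whose catalytic subunit is Pold1. Pold4 went from 48.3 and 46.3 CPM to 98.2 and 89.3 CPM in COL BRAF (0.99 ± 0.16, adjusted p = 0.0014 with edgeR) and from 50.02 and 46.4 CPM to 111 and 131 CPM in SI BRAF (1.33 ± 0.14, 1.5e-05). In COL BRAFp53 it rose by 1.42 ± 0.16 (0.00020) and in SI BRAFp53 by 0.76 ± 0.14 (0.0034). Pold1 and Pold4 thus moved apart within 1 polymerase complex in both BRAF arms and in COL BRAFp53. Cdca7, a chromatin remodeling partner, fell in COL BRAF (−1.58 ± 0.23, 0.00062), SI BRAF (−0.97 ± 0.31, 0.028) and COL BRAFp53 (−1.02 ± 0.22, 0.0083), and Mcm9, a helicase relative with a role in repair, fell in COL BRAFp53 (−1.28 ± 0.27, 0.0073).

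Of 24 other genes of nucleotide synthesis, 9 fell in COL BRAF, 11 fell and 2 rose in SI BRAF, 3 fell and 1 rose in COL BRAFp53 and none passed in SI BRAFp53. The shares that fell were 37.5%, 45.8% and 12.5% in the first 3 arms, against 9.61%, 14.2% and 7.76% of all genes, and 8.33% rose in SI BRAF and 4.17% in COL BRAFp53, both below the share of all genes. In SI BRAF 18 fell without on replicate 1 and 3 without on replicate 2. The purine synthesis gene Paics fell in SI BRAF (−1.12 ± 0.23, adjusted p = 0.0023 with edgeR). The folate gene Shmt1 fell in COL BRAF (−1.01 ± 0.19, 0.0035) and SI BRAF (−0.66 ± 0.22, 0.038). The deoxycytidine kinase gene Dck fell in COL BRAF (−0.99 ± 0.12, 0.00026) and COL BRAFp53 (−0.66 ± 0.12, 0.0032).

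Of 18 S-phase checkpoint and repair genes, 11 fell in COL BRAF, 12 in SI BRAF, 11 in COL BRAFp53 and none in SI BRAFp53 (61.1%, 66.7%, 61.1% and 0%, against 9.61%, 14.2%, 7.76% and 4.53% of all genes). In SI BRAF 13 fell without on replicate 1 (14.3% of all genes) and 5 without on replicate 2 (7.36%). In COL BRAFp53 their median of −0.65 stood beside −0.41 for the 45 replication genes and −0.29 for the mitosis genes. The checkpoint kinase gene Chek1 went from 18.2 and 17.8 CPM to 7.14 and 7.02 CPM in COL BRAF (−1.35 ± 0.22, adjusted p = 0.0012 with edgeR). Chek1 also fell in SI BRAF (−0.97 ± 0.27, 0.015) and COL BRAFp53 (−0.85 ± 0.21, 0.016). Wee1, the kinase that restrains entry into mitosis, fell in COL BRAF (−0.91 ± 0.20, 0.0077), SI BRAF (−1.01 ± 0.28, 0.016) and COL BRAFp53 (−1.26 ± 0.20, 0.0015). Brca1, a repair gene, fell in the same arms (−1.03 ± 0.20, 0.0035, then −0.57 ± 0.19, 0.037, and −0.99 ± 0.20, 0.0050). Without COL BRAFp53 on replicate 1, 2 of the 18 fell (3.1% of all genes), and without on replicate 2, 9 fell (4.17%).

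**Figure D5:**
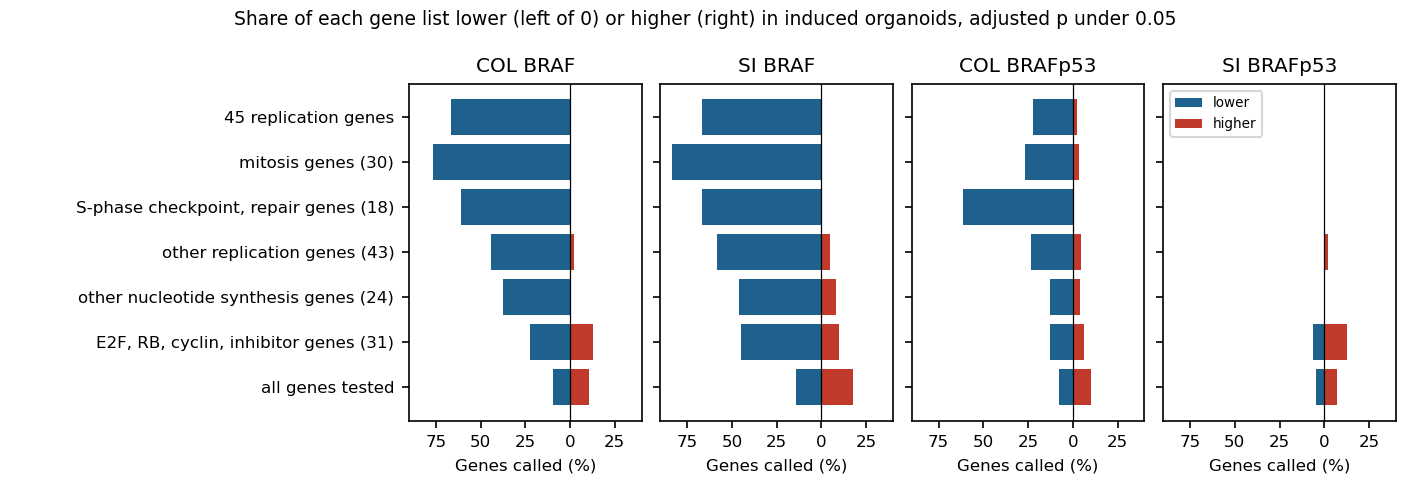
Share of each gene list, in percent, that was lower (blue, left of 0) or higher (red, right of 0) in on organoids at an adjusted p under 0.05, for the 4 arms with the BRAF allele, with the list sizes in brackets and all genes tested in the lowest row. In COL BRAF and SI BRAF the 45 replication genes, the mitosis genes and the checkpoint and repair genes are mostly lower, in COL BRAFp53 the checkpoint and repair genes have the largest share (11 of 18), and in SI BRAFp53 few list members passed.

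Of 31 E2F, RB, cyclin and CDK inhibitor genes, 7 fell (22.6%, against 9.61% of all genes) and 4 rose (12.9% against 10.3%) in COL BRAF. In SI BRAF 14 fell (45.2% against 14.2%) and 3 rose (9.68% against 17.5%), in COL BRAFp53 4 fell (12.9% against 7.76%) and 2 rose (6.45% against 9.95%), and in SI BRAFp53 2 fell (6.45% against 4.53%) and 4 rose (12.9% against 6.98%). The shares that rose lay near or below that of all genes in every arm but SI BRAFp53. In SI BRAF 15 fell without on replicate 1 and 11 without on replicate 2. Cdkn1a, encoding the p53-responsive CDK inhibitor p21, rose in all 4 arms with the BRAF allele. Cdkn1a went from 332 and 341 CPM to 655 and 709 CPM in COL BRAF (1.02 ± 0.17, adjusted p = 0.0015 with edgeR) and from 189 and 199 CPM to 547 and 675 CPM in SI BRAF (1.65 ± 0.14, 1.9e-06). It went from 155 and 157 CPM to 449 and 322 CPM in COL BRAFp53 (1.31 ± 0.17, 0.00045) and from 195 and 160 CPM to 369 and 399.9 CPM in SI BRAFp53 (1.12 ± 0.14, 0.00013). In COL p53 and SI p53 Cdkn1a was at −0.28 ± 0.17 (0.73) and 0.26 ± 0.13 (0.98).

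Among the other inhibitors, Cdkn2b rose in SI BRAF by 1.75 ± 0.22 (adjusted p = 4.8e-05, edgeR) and in SI BRAFp53 by 0.93 ± 0.21 (0.012), Cdkn1c rose in COL BRAF by 1.20 ± 0.34 (0.030), in SI BRAF by 0.78 ± 0.27 (0.044) and in SI BRAFp53 by 1.46 ± 0.27 (0.0031). Cdkn1b, encoding p27, fell in SI BRAF (−0.63 ± 0.14, 0.0039) and COL BRAFp53 (−0.82 ± 0.14, 0.0021), and Cdkn2c fell in COL BRAF (−1.08 ± 0.33, 0.040) and in SI BRAF (−1.33 ± 0.24, 0.00095). Cdkn2a passed in no arm and was at or under 0.461 CPM in SI libraries. The cyclin D1 gene Ccnd1 fell in SI BRAF (−0.65 ± 0.15, 0.0052) and had 0.43 ± 0.16 (0.079) in COL BRAF, a difference of −1.04 ± 0.22 between the tissues (0.0042). Myc fell in SI BRAF (−0.79 ± 0.20, 0.0088), with −0.32 ± 0.15 (0.17) in COL BRAF and 0.45 ± 0.15 (0.060) in COL BRAFp53.

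Markers of crypt stem cells and of absorptive cells were read in the same libraries. The summed level of 6 crypt stem cell markers was 481 to 559.8 CPM in COL BRAF off and 207 to 256 CPM on, 383 to 421 CPM in SI BRAF off and 62.9 to 159 CPM on, 686 to 795 CPM in COL BRAFp53 off and 266 to 333 CPM on, and 315 to 428 CPM in SI BRAFp53 off and 215 to 243 CPM on. For 8 markers of enterocytes and colonocytes it was 2880 to 2929 CPM in COL BRAF off and 5880 to 8186 CPM on, and 6589 to 8268 CPM in SI BRAF off and 31310 to 36040 CPM on. In COL BRAFp53 these markers summed to 5371 to 6124 CPM off and 7551 to 13540 CPM on. In SI BRAFp53 they summed to 8958 to 9905 CPM off and 13270 to 14600 CPM on. In these 4 arms the summed stem cell markers were lower and the summed absorptive markers higher on than off, with no overlap. In the p53 arms the on and off ranges were 300.3 to 349 and 352 to 402 CPM in COL, again with no overlap, and 309.7 to 311 and 281 to 329.6 CPM in SI for the stem cell markers. For the absorptive markers they were 15920 to 19560 and 17500 to 22310 CPM in COL and 8628 to 10230 and 8079 to 9864 CPM in SI, and overlapped.

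Gene by gene the absorptive markers were mixed in direction. Of the 6 stem cell markers, 5 fell in COL BRAF, 6 in SI BRAF, 5 in COL BRAFp53, 1 in SI BRAFp53 and none in the p53 arms with edgeR. Of the 8 absorptive markers, 4 rose and 1 fell in COL BRAF, 3 rose and 2 fell in COL BRAFp53 and 2 fell in COL p53. In SI, where 7 could be tested, 6 rose in BRAF, 3 rose and 2 fell in BRAFp53 and none passed in p53. Krt20, a keratin of differentiated cells, rose in all 4 arms with the BRAF allele, by 1.34 to 2.65 on the log2 scale. The brush border enzyme gene Sis fell in COL BRAF (−0.98 ± 0.30, adjusted p = 0.041 with edgeR), COL BRAFp53 (−2.40 ± 0.32, 0.00051) and COL p53 (−2.00 ± 0.32, 0.046), and rose in SI BRAF by 1.11 ± 0.15 (0.00013). Apoa1, an apolipoprotein gene, fell in COL BRAFp53 (−1.37 ± 0.21, 0.0011) and COL p53 (−1.85 ± 0.21, 0.0089), and in SI BRAFp53 the carbonic anhydrase gene Car4 (−2.93 ± 0.74, 0.021) and the anion exchanger gene Slc26a3 (−0.45 ± 0.14, 0.047) fell. The part of these markers in the response of the replication genes was not tested.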

How the data were processed

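Raw read counts per gene were deposited by the authors for 24 libraries, made from paired-end HiSeq4000 reads of total RNA. Per the labels, Trimmomatic 0.36 and STAR 2.5.2b were used, and the methods name mouse build mm10. The annotation release and the strand setting of the counting were not given in the sources used here, and replicates were not pooled. From these counts, low-count genes were removed with filterByExpr per tissue, libraries were scaled by TMM, and the 12 libraries of a tissue were fitted together in edgeR 4.0.16 (glmQLFit and glmQLFTest, R 4.3.3). Levels are CPM on TMM-scaled library sizes. Genes with a Benjamini-Hochberg adjusted p under 0.05 over all genes tested were called. Tissue differences came from a joint fit of 24 libraries, and non-induced tissues from 6 summed off cultures. SE is the log2 fold change divided by the root of F. The script was tested on simulated data.

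The members and lists were chosen with earlier results of these data known. The genes named were 17 set members (Mcm2, Mcm5, Mcm6, Cdc6, Cdt1, Cdc45, Orc1, Pcna, Pole, Rrm2, Tk1, Tyms, Lig1, Uhrf1, Ccne1, Ccne2 and E2f1), the 3 called members of each arm and direction with the largest change, called differences, and in other lists up to 4 called genes an arm with Cdkn1a, Cdkn2a, Ccnd1, Myc and Mki67. Further members were named to account for all 45. The tools DESeq2 1.42.0 and voom of limma 3.58.1, RLE size factors, no filter, a minimum of 10 counts per library, a replicate block and leaving out each library were tried as alternatives. Counts without single on or off libraries, for the lists and the joint fit, were added after seeing the data. With 2 libraries of 1 culture a group, p-values measure only the spread between these samples. A gene that the rule for names covers is not reported here.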

Additional observations from a re-analysis of the deposited data

Results flagged for a closer look

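Among the 45 genes, a test of the difference between responses was passed by 5 results. Each came from edgeR's quasi-likelihood test with Benjamini-Hochberg adjustment over all genes. In SI organoids the responses to BRAFp53 and to BRAF differed for the clamp loader gene Rfc1 by 0.64 on the log2 scale (adjusted p = 0.039) and for the dUTP-removing gene Dut by 0.89 (0.044), both less negative in BRAFp53, where 1.93% of all genes had a higher response and 6.28% a lower one. Leaving out replicate 2 of SI BRAF on gave 0.51 (0.10) and 0.80 (0.11), and leaving out replicate 1, the library with Xist, gave 0.81 (0.0072) and 1.01 (0.027). Between the tissues, the response to BRAF differed for Cdt1 by −0.65 (0.047), for Pcna by 0.65 (0.0496) and for Rfc2 by 0.65 (0.026), as SI minus COL. In that comparison 3.31% of all genes were lower and 7.4% higher, larger shares than 1 and 2 of the 45. Each of the 5 kept its direction without either on library and none passed in both of these fits, since Cdt1, Rfc1 and Dut lost the call without replicate 2 and Pcna and Rfc2 without replicate 1. Groups of 2 libraries were too small for a check of single libraries against their group.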

How the results depend on the processing

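The fall of the replication genes kept its direction under each alternative, and no member was called in the opposite direction in any. Over RLE size factors, no filter, at least 10 counts in every library, DESeq2, limma-voom and the replicate block, 27 to 35 genes fell in COL BRAF and 29 to 36 in SI BRAF. In COL BRAFp53, where 10 fell, 19 fell with no filter, 18 with at least 10 counts, 18 with DESeq2, 16 with limma-voom and 6 with the replicate block, and the 1 that rose became 0 with no filter and 0 with the block. In SI BRAFp53, where 0 passed with edgeR, 4 fell with no filter, 1 with at least 10 counts, 2 with DESeq2 and 1 with limma-voom. With no filter, 1 fell in COL p53, and 1 rose and 1 fell in SI p53. Different responses to BRAFp53 and BRAF numbered 5 in COL with no filter and 3 with DESeq2, and in SI 12 with no filter, 5 with at least 10 counts, 6 with DESeq2, 4 with limma-voom and 1 with the block, and the 3 differences between tissues in BRAF became 0 with the block. The cause of these changes was not tested.

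Leaving out each library in turn gave from 14 to 25 falling genes in COL BRAF, 15 to 40 in SI BRAF, 1 to 17 in COL BRAFp53 (0 rose) and 0 to 1 in SI BRAFp53. Different responses numbered 0 to 29 between BRAFp53 and BRAF in SI and 0 to 2 between tissues in BRAF. The medians ran from −0.86 to −0.68 in COL BRAF, −0.60 to −0.21 in COL BRAFp53, −0.15 to −0.023 in COL p53, −1.12 to −0.43 in SI BRAF, −0.33 to −0.11 in SI BRAFp53 and −0.039 to 0.16 in SI p53. Leaving out each off culture left 2 to 15 genes different between tissues, namely 6, 2 and 3 without SI BRAF, SI p53 and SI BRAFp53. Under every alternative and without each library, 13 genes fell in COL BRAF (Cdc6, Mcm5, Cdc45, Pole, Pcna, Rfc2, Rfc3, Rfc4, Rpa1, Rpa2, Rrm1, Tyms and Tk1) and 12 in SI BRAF (Cdt1, Mcm6, Prim2, Pold1, Pole, Rfc1, Rfc4, Rfc5, Lig1, Dut, Chaf1a and Uhrf1).

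Replicate numbers were not shown to pair on and off libraries. The correlation of same-numbered deviations lay between −0.07 and 0.09 over 6 cultures, none over 0.1. The medians in the blocked fit were −0.74 in both BRAF arms and −0.43 in COL BRAFp53.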
